A study of Drosophila melanogaster with 136 samples.

Results

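The gustatory receptors (Gr genes) of Drosophila melanogaster were followed across a tissue atlas made on Affymetrix Drosophila Genome 2 arrays. Members were all probe sets whose annotated gene symbol is Gr followed by a number and letters, which gave 63 probe sets of 56 genes out of 18769 analysed probe sets. Of the 60 Gr genes in the RefSeq gene table, Gr64b, Gr64c, Gr64d and Gr64e lie only on 3 probe sets that match 2 receptor genes each, and these were not used as members. Gr39a has 5 probe sets, Gr23a has 3 and Gr93a has 2.

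Gustatory receptors are membrane proteins of insect chemosensory neurons, where subunits assemble into ion channels opened by sugars, bitter compounds, pheromones or carbon dioxide. In the fly they are best known from taste neurons of the labellum, pharynx, legs and wing margin and, for the carbon dioxide pair, from the antenna. Taste neurons are few per organ and each uses some of the receptors. Some receptors are also known outside taste, such as Gr43a in brain neurons that read fructose and Gr28b in neurons that respond to warmth or light.

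The 136 arrays form 34 groups of 4. From wild-type Canton-S animals, with no transgene, there were 22 groups of adults 7 days old, 9 of feeding third-instar larvae, and 2 of wandering third-instar larvae, which have left their food. S2 cells, an established line derived from embryos, at passage 5, made up the remaining group. The adult groups were whole fly, the head capsule with eyes and brain, brain, eye with its cuticle, thoracoabdominal ganglion, crop, midgut, hindgut, salivary gland, fat body, heart, trachea, carcass, thoracic muscle, wings, testis, accessory gland, ejaculatory duct with its bulb, ovary, and mated, virgin and redone mated spermatheca. The larval groups were whole larva, midgut, hindgut, salivary gland, tubule, fat body, carcass, central nervous system (CNS) and trachea, with tubule and fat body again from wandering larvae. Each array pooled 12 to 100 flies of a sex or 30 to 100 larvae, and most samples went through 1 round of amplification. Legs, labellum and antenna by themselves, and adult Malpighian tubule, were not analysed here.

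Values are signals in linear intensity units, and each array's mean signal over its middle 96% of probe sets was set to 100.004. Marker genes went with the names of most groups checked. Of seminal fluid genes, 11 of 11 were highest in the accessory gland, although its label lists flies of both sexes. Of sperm genes, 13 of 14 were highest in the testis. The match was weaker for thoracic muscle, highest for 3 of 5 muscle genes. Thoracoabdominal ganglion was highest for 2 of 7 neuron genes, with the brain among the groups compared. Arrays of 1 group correlated at 0.884 or above in 32 groups. In the other 2 groups, thoracic muscle replicate 4 reached 0.976 with a redone mated spermatheca array against 0.799 with its own group, and redone mated spermatheca replicate 2 reached 0.943 with a muscle array against 0.774 with its own. The counts that rest on muscle are given with and without these 2 arrays. The titles call the replicates biological in 27 groups and say only "rep" in 7, so p-values cover only the spread among these arrays, which may be technical.

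Most receptors gave little signal anywhere. The median of the 2142 group means, 63 probe sets in 34 groups, was 3.58 units, and 14 of those means reached 20. Of the 63 probe sets, 50 never had a group mean of 20, a share of 79.4% against 24.0% of all probe sets. On an average array the median receptor stood at the 26.1 percentile of all probe sets. In 42 probe sets the highest group mean was less than 1.5 times the next. For 15 of the 63 the highest group was adult salivary gland and for 14 thoracic muscle, shares of 23.8% and 22.2% where all probe sets had 10.5% and 10.8%. Without the 2 arrays that resembled another group, thoracic muscle was highest for 22 (34.9% against 13.9% of all probe sets) and adult salivary gland for 12 (19.1% against 9.70%).

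**Figure D1:**
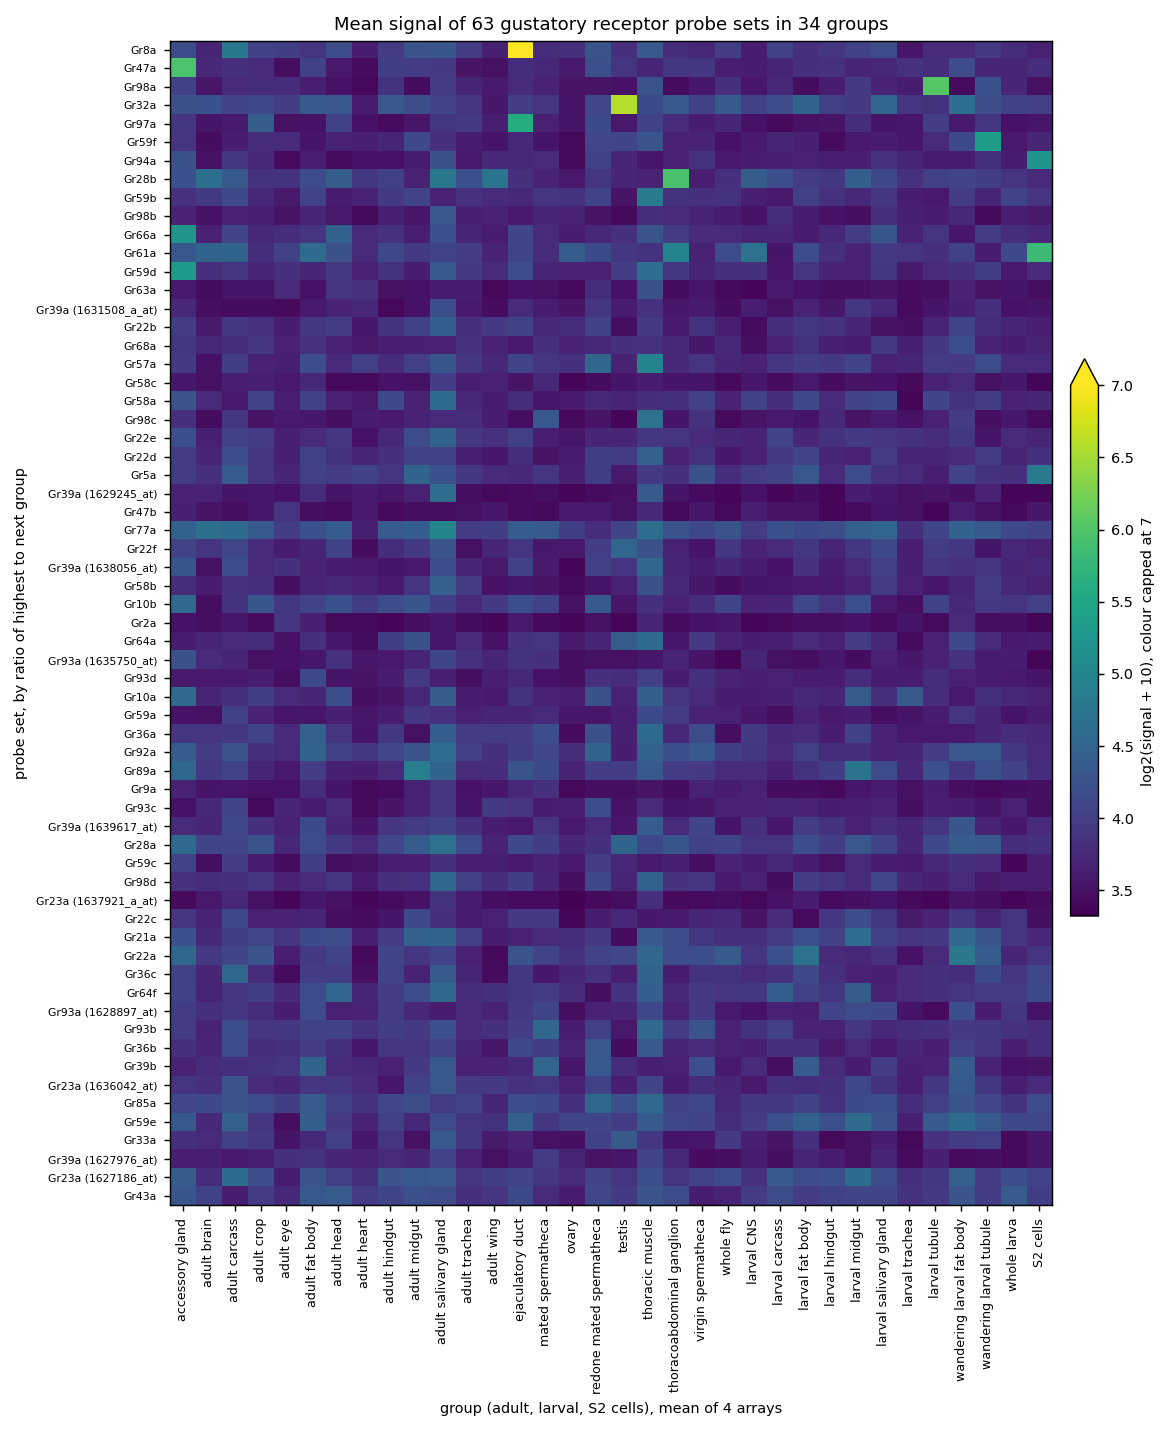
Mean signal of the 63 receptor probe sets (rows, ordered by the ratio of the highest to the next group) in the 34 groups (columns), as log2(signal + 10), each cell a mean of 4 arrays. Most cells are dark, and single bright cells stand for Gr8a in ejaculatory duct (colour capped there), Gr32a in testis, Gr98a in larval tubule, Gr47a in accessory gland and Gr28b in thoracoabdominal ganglion.

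Against this low level, 11 probe sets each had 1 group whose 4 arrays all lay above every one of the other 132 arrays. They were Gr8a and Gr97a in ejaculatory duct, Gr47a, Gr59d and Gr66a in accessory gland, Gr32a in testis, Gr28b in thoracoabdominal ganglion, Gr98a in larval tubule, Gr59f in wandering larval tubule, and Gr61a and Gr94a in S2 cells. The groups are male reproductive organs, nerve cord, excretory tubule and a cell line. How many of all probe sets had such a group was not counted, so 11 cannot be called many or few. A second reading used a reference level, the 90th percentile of genes that belong to other tissues (opsin, seminal fluid, eggshell, glue and sperm genes). By that measure 14 receptors exceeded the level on all 4 arrays of some group. Leaving out whole fly, where the level, from 10 probe sets, was 4.31 units, 11 did so. These 11 were those above without Gr66a and Gr98a, together with Gr5a in S2 cells and Gr77a in brain. The share of all probe sets above the level was not counted. The level reached 703 units in wandering larval fat body, so groups differ in how easily a receptor passes. Gr66a and Gr98a missed the level in the groups where they peaked, and in larval tubule the level itself ranged from 11.1 to 383 units between arrays.

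**Figure D2:**
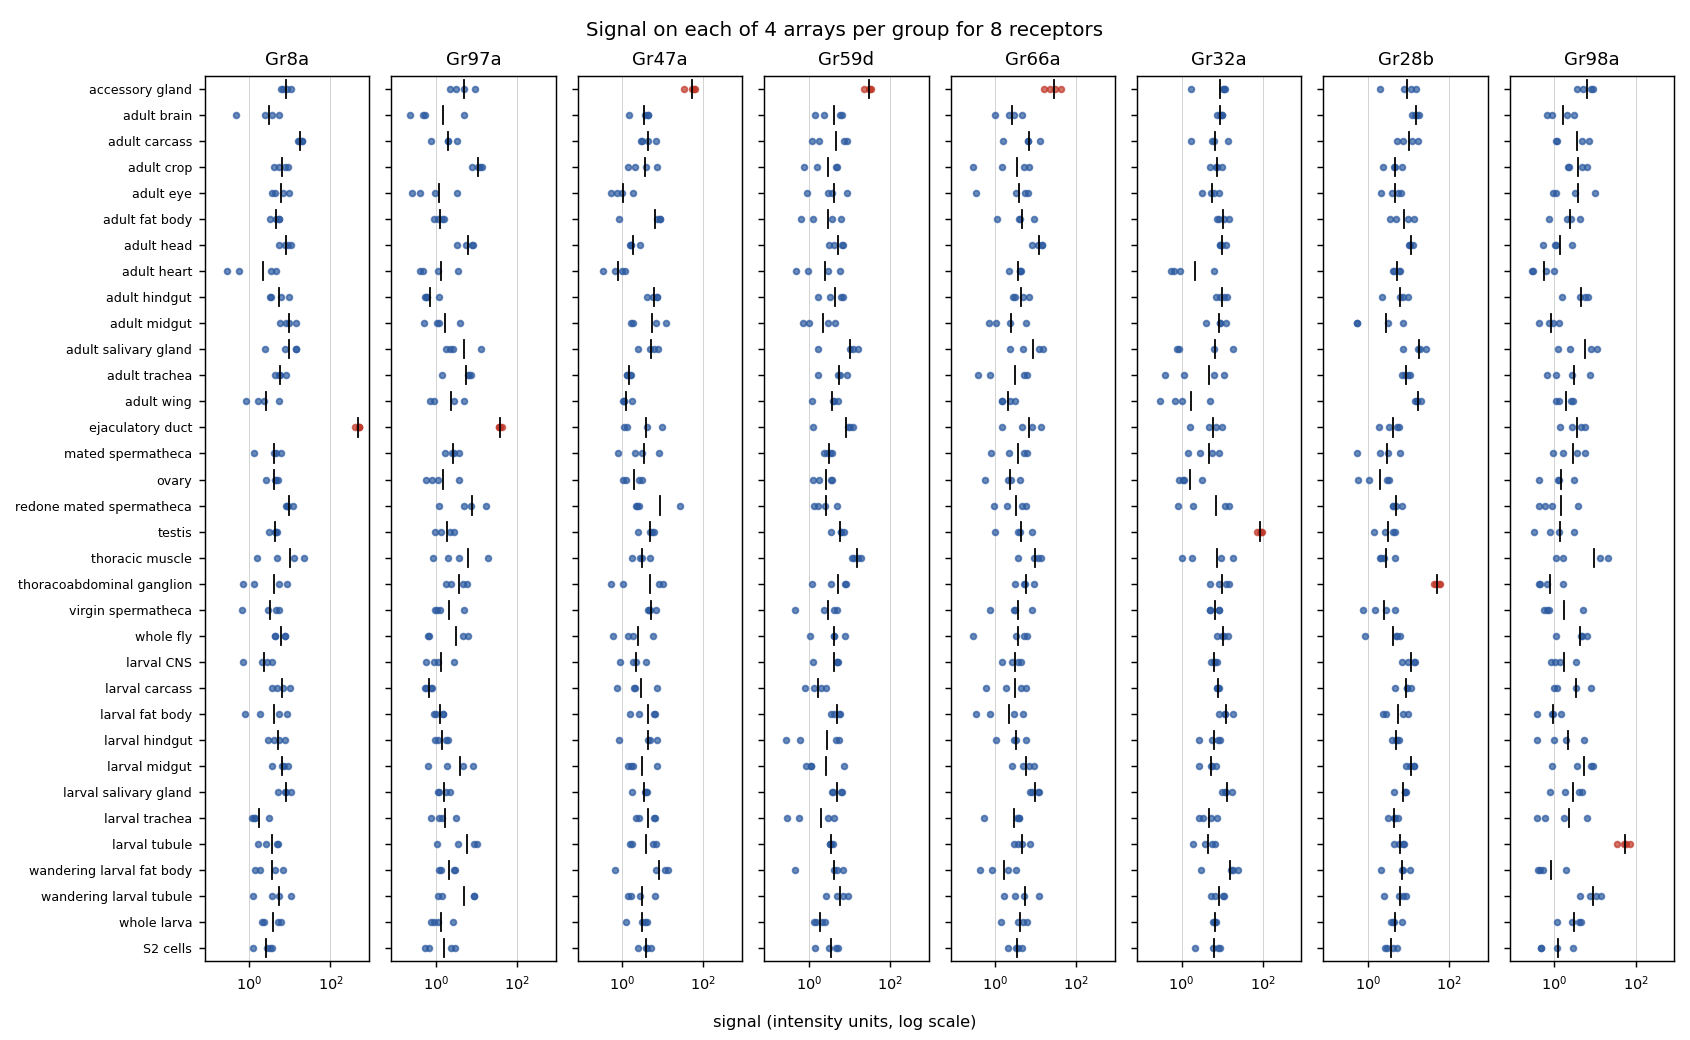
Signal on each array (points, log axis, intensity units) with the group mean (bar) in all 34 groups for 8 receptors, the highest group in red. In each panel the red points lie to the right of all other points.

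The atlas sets each tissue against whole animals. Of 1323 receptor tests, 21 adult tissues or head against whole fly, 12 were called higher, which is 0.907%, where 8.95% of all probe sets were called higher over the same comparisons. A call means an adjusted p below 0.05 in limma and at least a 2-fold change on the log2(signal + 10) scale. The added 10 units shrink the fold of low genes. With 2% of the trimmed mean added in place of 10%, many more receptor tests were called. The share of receptors called thus depends on this setting. The share of all probe sets with 2% is not given here. Without the 2 arrays that resembled another group the higher calls were 14, and the share of all probe sets in that fit is not given. No receptor was called lower, against 20.9% of all probe sets, and 65 had an unadjusted limma p under 0.05 in that direction. On this scale a 2-fold fall needs a whole fly mean over 10 units, and 2 of 63 receptors had one. In bulk samples, fewer cells of a type and less RNA per cell cannot be told apart. Setting each dissected adult tissue against the other dissected tissues gave 7 higher calls in 1260 tests and 0 lower (120 at an unadjusted limma p under 0.05), where 8.39% of all probe sets were called higher and 7.02% lower; the calls lie in duct (5.98% of all probe sets higher), accessory gland (8.08%), testis (16%) and ganglion (12.1%).

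**Figure D3:**
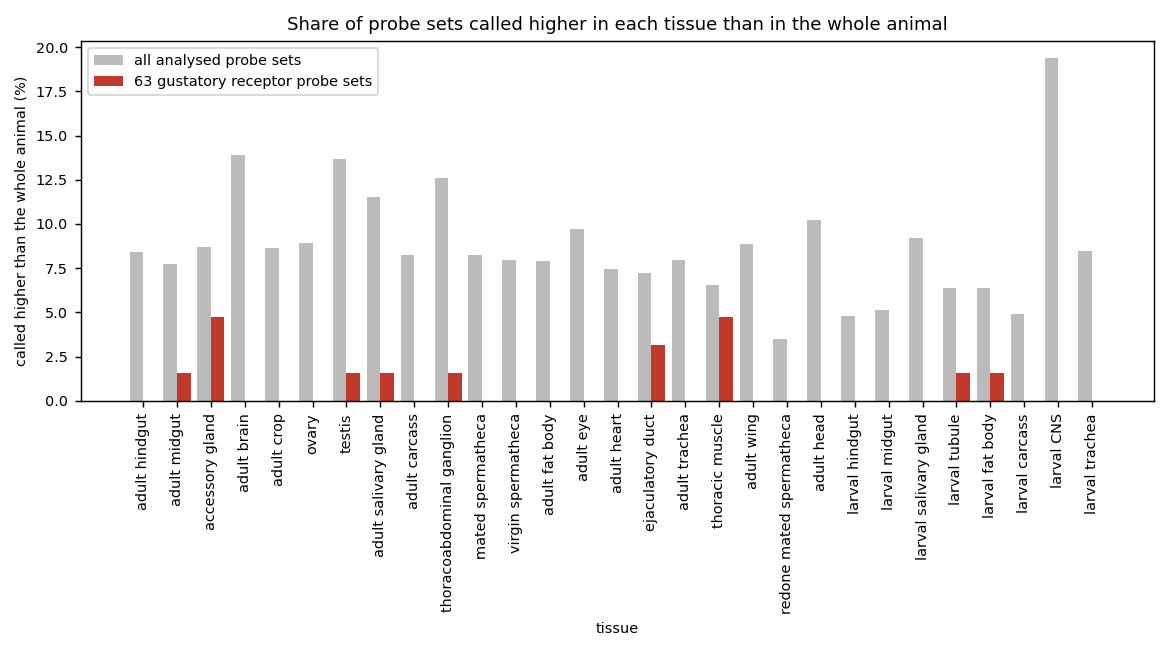
Share of probe sets called higher than the whole animal, in percent, for each adult and larval tissue, with all 18769 probe sets in grey and the 63 receptor probe sets in red. The red bars are absent in 20 tissues and highest, at 4.76%, in accessory gland and thoracic muscle.

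In the ejaculatory duct, which carries seminal fluid, 2 of 63 receptors were higher than in whole fly, against 7.25% of all probe sets. Gr8a, a bitter receptor subunit known for detecting the plant toxin L-canavanine, read 499.7, 516, 512 and 393 units on the 4 duct arrays and 4.37, 7.67, 7.41 and 4.22 on the whole fly arrays. All duct arrays were high and far from the whole fly arrays. The difference was 4.94 ± 0.13 on the log2 scale (± SE, limma adjusted p = 6.8e-10), and the duct mean was 480 ± 58.4 (SD, n = 4). The next group, adult carcass, read 18.1, which is not above its reference level of 136, so no fold is given against it. In accessory gland Gr8a was 8.02 ± 2.06 and in testis 4.23 ± 0.791, far below the duct in both organs. In duct, Gr8a stood at the 92.6 percentile of all probe sets on its arrays.

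Gr97a was the other receptor called in duct. Its duct arrays read 43.4, 36.6, 36.9 and 37.7 units against 0.652, 6.35, 4.75 and 0.683 in whole fly, with no overlap. The difference was 1.92 ± 0.16 (log2 ± SE, limma adjusted p = 1.9e-06), and the next group was adult crop at 11.2. Both duct calls held against the other adult tissues, at 4.95 ± 0.14 for Gr8a and 1.90 ± 0.14 for Gr97a. Neuron markers were low there: the summed signal of 7 neuron genes was 45.7 to 63.5 units in duct and 177 to 193 in whole fly, and brp, a synaptic scaffold gene, stood at 0.811.

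In the accessory gland, the source of most seminal fluid proteins, 3 of 63 receptors were higher than in whole fly, against 8.72% of all probe sets. Gr47a, a subunit for the bitter alkaloid strychnine, read 33.2, 63.2, 53.2 and 59.8 units in gland and 5.75, 0.587, 1.42 and 1.80 in whole fly. The gland arrays were high throughout, and the difference was 2.32 ± 0.19 (log2 ± SE, limma adjusted p = 2.2e-06). The next group was the redone mated spermatheca at 8.56 ± 12.4, where replicate 2 alone, the array that resembled muscle, read 27.2 and the others 2.17 to 2.53.

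Gr66a, a subunit used in nearly all bitter-sensing neurons, read 43.0, 22.9, 29.1 and 16.2 units in accessory gland and 0.292 to 5.94 in whole fly. The gland arrays differed among themselves more than those of Gr47a, but none came down to the whole fly range. The difference was 1.44 ± 0.22 (limma adjusted p = 0.00024), and the next group was the head, at 12.1 ± 2.84. Gr59d, a neighbour of Gr59c on the chromosome, read 22.7, 31.1, 34.6 and 32.7 in gland and 1.10 to 7.77 in whole fly, a difference of 1.51 ± 0.16 (limma adjusted p = 1.7e-05). Against the other adult tissues the 3 genes stood 2.17 ± 0.15, 1.37 ± 0.15 and 1.47 ± 0.14 higher, for Gr47a, Gr66a and Gr59d in that order.

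Other subunits of bitter-sensing neurons were not called in the gland. Gr33a was at 4.10 ± 3.82 units in gland and 5.30 ± 3.53 in whole fly, and Gr32a at 8.77 ± 4.73 and 10.5 ± 2.61, with overlapping arrays. Of 7 neuron genes 0 were called higher in gland and 2 lower, where 21.6% of all probe sets were lower, with a summed signal of 78.4 to 107 units. The median difference from whole fly over the 63 receptors was 0.23 on the log2 scale and over all probe sets -0.01.

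In the testis, 1 of 63 receptors was higher than in whole fly, against 13.7% of all probe sets. Gr32a, a bitter receptor that also serves pheromone avoidance in male courtship, read 92.0, 85.0, 93.4 and 73.2 units in testis and 13.7, 7.50, 9.76 and 11.2 in whole fly. All testis arrays lay far above the whole fly arrays. The difference was 2.23 ± 0.12 (log2 ± SE, limma adjusted p = 1.6e-08), and 2.58 ± 0.18 against the other adult tissues. The next group, wandering larval fat body, was at 15.5 ± 8.88, and the ovary at 1.59 ± 1.11.

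In the thoracoabdominal ganglion, the nerve cord of the adult, 1 of 63 receptors was higher than in whole fly, against 12.6% of all probe sets. Gr28b, the receptor of warmth and light responses, read 42.2, 48.5, 59.6 and 55.7 units in ganglion and 6.26, 5.05, 0.851 and 4.82 in whole fly. The difference was 2.12 ± 0.15 (limma adjusted p = 4.1e-07), and 1.96 ± 0.13 against the other adult tissues, a comparison that leaves out the brain. The next group was adult salivary gland at 17.7 units, with arrays from 7.49 to 26.9. The brain read 12.3, 16.6, 14.2 and 18.2, the wings 14.4 to 19.7 and the head 10.3 to 12.8. All of these arrays lay above the whole fly arrays and below the ganglion arrays. Here the 7 neuron genes were all called higher than in whole fly, with a summed signal of 3663 to 4474. Gr28a, the neighbouring gene, was at 9.86 ± 4.35 in the ganglion.

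Of the 5 other adult calls, each was close to the 2-fold limit. Gr89a, a receptor expressed in bitter-sensing neurons, read 21.9, 18.4, 24.5 and 14.4 units in adult midgut and 1.02 to 5.46 in whole fly, a difference of 1.13 ± 0.14 (limma adjusted p = 4.7e-05), where 7.73% of all probe sets were called higher. Larval midgut was its next group at 16.6 ± 3.71, and hindgut was at 3.68 ± 3.27. The midgut was the highest group at the adult stage and the next at the larval stage, and the larval midgut was not called against whole larva. Leaving out replicate 1 of every group put Gr89a at 0.998, just under the limit.

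In adult salivary gland, 1 of the 5 Gr39a probe sets was called higher, where 11.5% of all probe sets were. Gr39a, whose variants serve bitter taste and courtship, read 22.4, 1.27, 20.7 and 15.5 units on it against 0.205 to 0.959 in whole fly, at 1.15 ± 0.30 (limma adjusted p = 0.0087). Replicate 2 was close to the whole fly arrays, and the other 4 probe sets had salivary gland means of 6.42 to 8.51. The call was lost without salivary gland replicate 1, at 0.984, and with quantile normalization. Leaving out replicate 3 or 4 of every group gave a limma adjusted p of 0.054 or 0.053. The gland arrays' own median probe set was 15.7 to 20.4 units, against 27.95 to 28.8 on the whole fly arrays. The median receptor was at 4.15 to 10.03 units on the gland arrays and 1.83 to 3.48 on the whole fly arrays.

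In thoracic muscle, Gr36a, Gr98c and Gr57a were called higher, where 6.55% of all probe sets were. Gr57a, for example, read 29.6, 13.9, 33.98 and 7.29 units in muscle and 1.91 to 4.93 in whole fly, at 1.15 ± 0.30 (limma adjusted p = 0.018). The lowest muscle value of Gr57a was on replicate 4, the array that resembled spermatheca, and the redone mated spermatheca read 28.8 on replicate 2, which resembled muscle. Gr36a was at 1.08 ± 0.28 and Gr98c at 1.21 ± 0.26, also with replicate 4 lowest of the muscle arrays. Without those 2 arrays the muscle calls were 5, the 3 named together with Gr39a and Gr59b. The share of all probe sets in that fit is not given here. Leaving out all 6 arrays closer to another group than to their own left 1 muscle array. Its spread could not be measured, so muscle calls of that fit are not counted. Without muscle replicate 3, Gr36a stood at 0.873, Gr98c at 0.969 and Gr57a at 0.948, all under the 2-fold limit, and Gr36a and Gr57a were also under it without muscle replicate 1, at 0.967 and 0.998. With quantile normalization Gr57a alone of the 3 was called. Without whole fly replicate 1 or 4 the limma adjusted p of Gr57a was 0.054 or 0.051. The median probe set of the muscle arrays had 11.1 units on replicate 4 and 17.0 to 21.3 on the others. In whole fly it had 27.95 to 28.8. The median receptor was at 4.01 to 8.81 units on the muscle arrays and 1.83 to 3.48 on the whole fly arrays. The muscle genes' summed signal ran from 411 to 57129 units over the muscle arrays. The part of array medians and muscle content in the receptor values was not tested.

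Several of the peak receptors sit beside genes with signal in the same group, by gene order in the RefSeq annotation of assembly Release 6 plus ISO1 MT. Gr8a is overlapped by CG12121, which was at 1404 ± 337 units in duct and 231 ± 24.5 in whole fly. CG12121 was highest in accessory gland, where Gr8a was low, and CG15370, next to Gr8a, was highest in duct, at 45.0 ± 25.5. Gr32a is overlapped by CG6230, which was at 409 ± 50.8 in testis and 171 ± 21.6 in whole fly. CG6230 was highest in larval salivary gland. Gr32a also lies beside Dnaaf4, a gene for assembly of axonemal dynein. Dnaaf4 was highest in testis at 293 ± 11.4, against 33.1 ± 3.13 in whole fly. Gr47a is overlapped by SLO2, a potassium channel gene, at 73.0 ± 20.9 in accessory gland and 14.0 ± 4.45 in whole fly. SLO2 was higher still in brain, at 142 ± 11.2, and was at 83.9 ± 17.2 in ganglion, where Gr47a was at 3.45 ± 1.34 and 4.95 ± 4.88. The part of these neighbours in the receptor values was not tested, and Gr97a had no neighbour that was highest in duct.

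**Figure D4:**
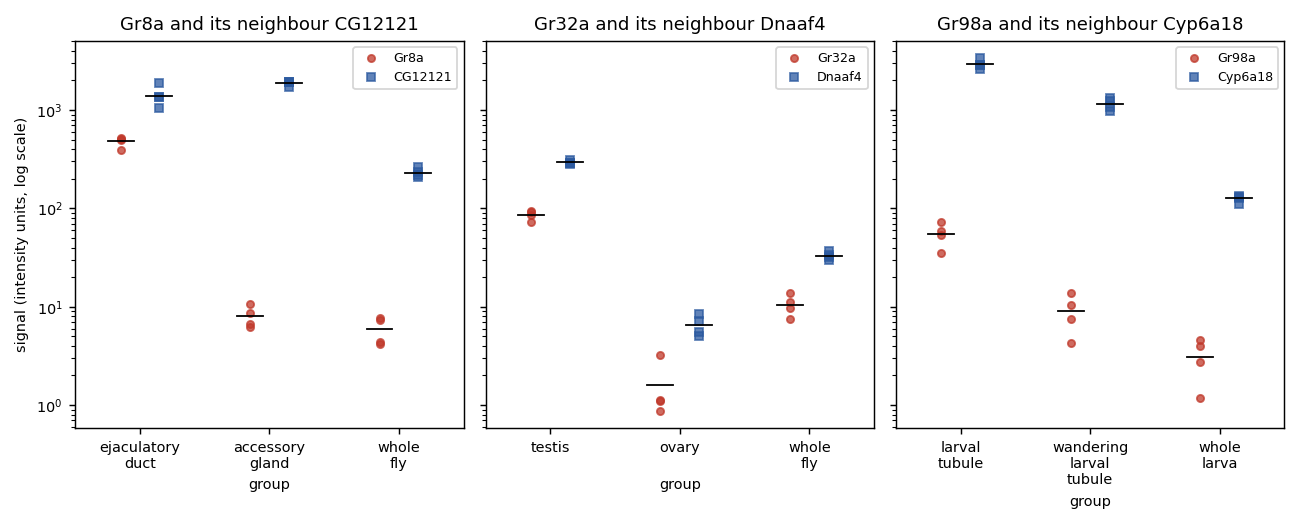
Signal on each array (log axis, intensity units) of 3 receptors (red circles) and a gene that overlaps or adjoins each (blue squares), in the receptor's highest group, a second group and the whole animal, with the mean as a bar. CG12121 is high in accessory gland while Gr8a is not, Dnaaf4 is high in testis as Gr32a is, and Cyp6a18 stays at 985 units or above in wandering larval tubule while Gr98a is at 4.27 to 13.9.

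The head capsule bears antennae and mouthparts, which the brain sample does not, and this comparison asks where taste receptors can be read. No receptor was called in head against brain by limma, where the shares over all probe sets were 9.36% higher and 11.8% lower; 11 receptors were higher and 2 lower at an unadjusted p under 0.05. Antenna tissue was present in the head: 6 of 9 antenna markers were higher there, with a summed signal of 5152 to 6217 units in head and 30.6 to 59.5 in brain. The odorant co-receptor Orco was 171 ± 17.0 in head and 12.9 ± 1.76 in brain. The median receptor difference was 0.07 on the log2 scale, that of all probe sets -0.05.

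Sugar receptors were the first role group, with 5 of 9 genes measured. Gr64f, the co-receptor used with most other sugar receptors, read 17.8, 13.7, 10.2 and 9.89 units in head and 2.19, 1.13, 0.747 and 8.18 in brain. The groups did not overlap, and the difference of 0.83 ± 0.18 (log2 ± SE, limma adjusted p = 0.0028) was under 2-fold on this scale. Brain replicate 4 stood above the other brain arrays, and without it the difference was 1.00, which passes. Gr43a, the fructose sensor, was at 10.9 ± 2.72 in head and 6.32 ± 2.61 in brain, and Gr5a, a trehalose receptor, at 5.69 ± 2.93 and 4.11 ± 1.59. Gr61a, a glucose receptor, was 8.75 ± 3.06 and 12.6 ± 4.81, and Gr64a, another sugar receptor, 1.78 ± 1.59 and 2.997 ± 2.94, so neither was higher in head.

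Of the 9 bitter receptor genes, on 14 probe sets, Gr66a and Gr8a had an adjusted p below 0.05 without reaching 2-fold. Gr66a read 14.2, 8.22, 14.2 and 11.7 units in head and 4.54, 2.89, 2.19 and 0.993 in brain, with no overlap, at 0.80 ± 0.12 (limma adjusted p = 0.0003). Gr8a was 8.11 ± 2.20 in head and 3.003 ± 2.10 in brain, at 0.48 ± 0.14 (limma adjusted p = 0.013). Gr33a was 6.20 ± 2.35 and 3.58 ± 1.37, an overlap between the groups. The other bitter probe sets differed by -0.26 to 0.21 on the log2 scale, among them Gr93a, a caffeine receptor, Gr22e, Gr47a, Gr89a, Gr32a and all 5 of Gr39a.

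The carbon dioxide receptor needs Gr21a and Gr63a together in antennal neurons. Gr21a read 7.13, 10.3, 10.1 and 5.00 units in head and 4.40, 3.66, 1.06 and 3.82 in brain, all head arrays above the brain arrays, at 0.45 ± 0.13 (limma adjusted p = 0.014). Gr63a read 1.21, 1.61, 7.60 and 8.34 in head and 0.363 to 2.06 in brain, so the groups overlapped. Of the courtship receptors, Gr68a was 2.71 ± 2.61 in head and 3.29 ± 3.66 in brain, and Gr32a 10.002 ± 1.68 and 9.07 ± 1.21. Gr28b had more signal in brain, 15.3 ± 2.62 against 11.2 ± 1.11 in head, at -0.25 ± 0.10 (limma adjusted p = 0.057).

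**Figure D5:**
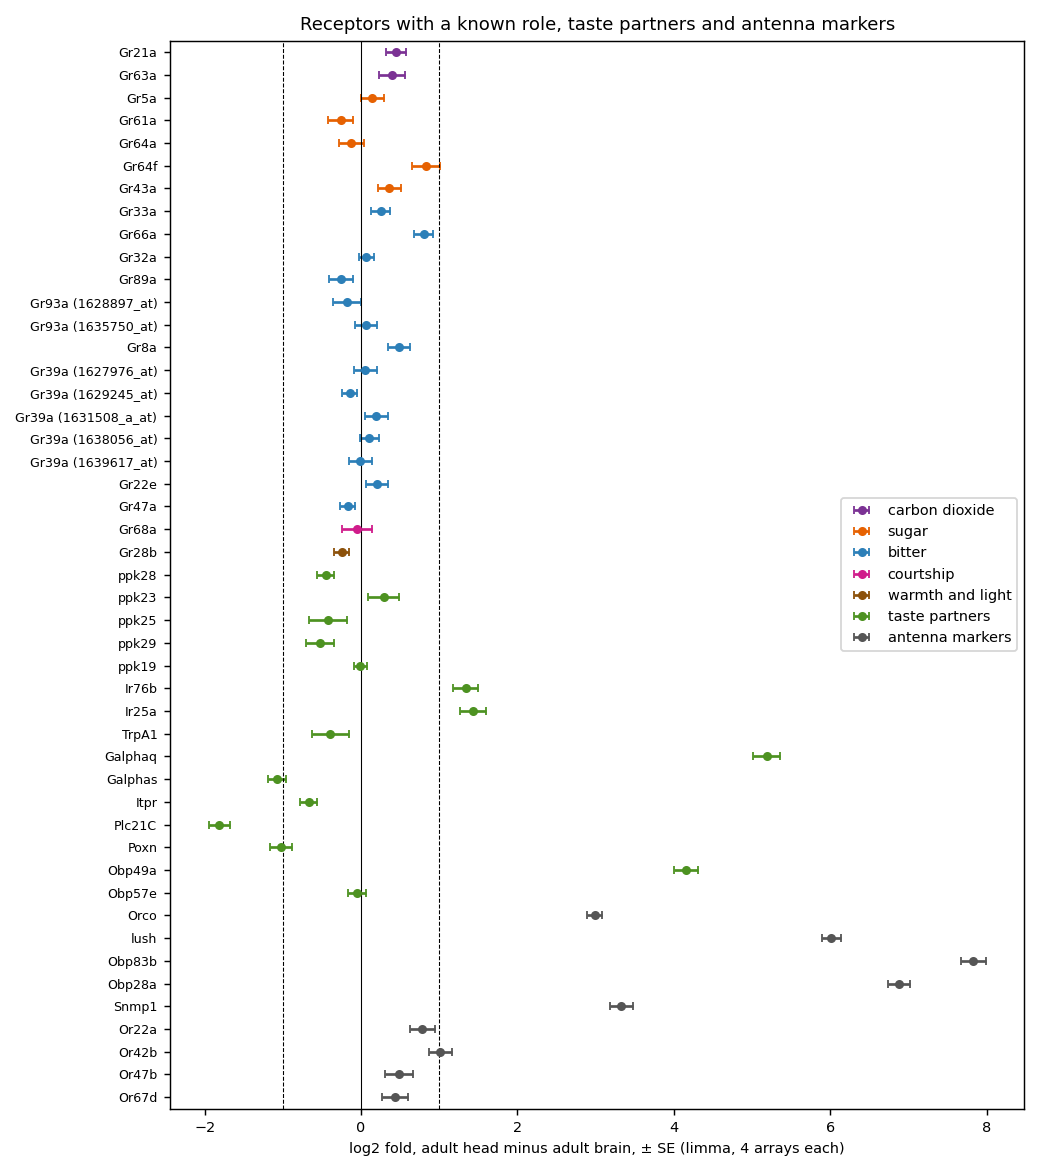
Difference between adult head and adult brain on the log2(signal + 10) scale, ± SE, for receptors with a known role (coloured by role, a gene in 2 role lists drawn once), taste partners and antenna markers, with dashed lines at 2-fold. All receptors lie between the dashed lines, with Gr64f and Gr66a nearest to the upper one, and Obp83b lies farthest right.

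Some other genes of taste neurons and taste organs were readable in the same samples. Means in head were under 10 units for 7 of 15 taste partners, the lowest ppk19 at 0.969. Of 15 measured taste partners, 4 were higher in head than brain: Galphaq, a G protein subunit also used in photoreceptors, at 5.19 ± 0.17, Obp49a, an odorant binding protein of taste organs, at 4.15 ± 0.15, and the broadly used ionotropic co-receptors Ir25a and Ir76b at 1.43 ± 0.16 and 1.34 ± 0.16. Plc21C, Galphas and Poxn, the last a determinant of taste bristles, were lower in head, at -1.82 ± 0.13, -1.07 ± 0.11 and -1.02 ± 0.14. All 7 neuron genes were lower in head, with a summed signal of 894 to 1188 units against 4121 to 4612 in brain, and 3 of 3 photoreceptor genes were higher, at 5692 to 6656 against 84.0 to 148. The part of these cell types in the receptor and partner values was not tested.

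In head against eye, no receptor was called by limma either, where the shares over all probe sets were 6.84% higher and 4.01% lower; 14 receptors stood higher and 1 lower at an unadjusted p under 0.05. The eye arrays were labelled with another kit, so kit and tissue cannot be told apart here. Gr64f was 0.76 ± 0.13 higher in head (limma adjusted p = 0.0015), Gr43a 0.70 ± 0.20 (0.02), Gr66a 0.68 ± 0.16 (0.008) and Gr28b 0.56 ± 0.11 (0.0035). Gr47b, at 0.774 units in head and 4.63 in eye, was the receptor with an adjusted p below 0.05 and more signal in eye.

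The wing margin carries taste bristles, and the wing samples give a second view. No receptor was called in wing against whole fly, where 8.89% of all probe sets were called higher and 19.8% lower. At an unadjusted limma p under 0.05, 2 receptors were higher and 6 lower. Only 2 of 63 receptors had a whole fly mean over the 10 units that a 2-fold fall needs. Gr28b read 16.4, 19.7, 16.4 and 14.4 units in wings, above all whole fly arrays, at 0.92 ± 0.14 (limma adjusted p = 0.00018). With quantile normalization it was called. Of 15 taste partners, 7 were called higher in wing and 1 lower, Galphaq at -4.09 ± 0.12, and 5 had means under 10 units, the lowest ppk19 at 0.597. Neuron genes were higher in 3 of 7, with a summed signal of 447 to 601 units against 177 to 193 in whole fly, and their part in these values was not tested. Among genes of pheromone-sensing sodium channels, ppk23 stood at 386 ± 38.9 in wings and 12.6 ± 1.60 in whole fly, ppk29 at 73.1 ± 5.44 and 11.9 ± 4.29, and ppk25 at 42.1 ± 4.63 and 3.99 ± 2.81. Ir25a was 2.33 ± 0.14 and Ir76b 1.09 ± 0.12 higher on the log2 scale. Gr66a was at 2.09 ± 0.758 in wings and Gr64f at 4.20 ± 2.71, and in whole fly at 3.66 ± 2.52 and 4.66 ± 4.50.

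Larval tissues gave 2 higher calls in 504 receptor tests against whole larva, 0.397% where 8.1% of all probe sets were called higher. There were 0 lower calls, where 13.6% of all probe sets were lower (24 receptor tests at an unadjusted limma p under 0.05). On this scale a 2-fold fall needs a whole larva mean over 10 units. The highest receptor there stood at 10.9 and the median receptor at 3.08. Gr98a read 59.5, 73.3, 53.1 and 35.2 units in larval tubule, the excretory organ, and 2.73, 1.17, 4.55 and 3.97 in whole larva. All tubule arrays were high, and the difference was 2.29 ± 0.17 (limma adjusted p = 1.5e-06), where 6.4% of all probe sets were called higher. The next group of Gr98a was thoracic muscle at 9.41. Its relatives by name Gr98b, Gr98c and Gr98d were at 2.31, 2.68 and 2.55 in the same tubule. Neuron genes summed to 32.2 to 37.7 units in larval tubule and 63.6 to 111 in whole larva.

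Gr98a adjoins Cyp6a18, a cytochrome P450 gene, which read 2615 to 3355 units in larval tubule and 111 to 135 in whole larva. Cyp6a18 was highest in larval tubule as well, and its part in the Gr98a values was not tested. The second larval call was Gr22a in larval fat body, where 6.4% of all probe sets were higher. It read 12.8, 16.1, 18.4 and 17.6 units there and 0.984 to 5.19 in whole larva, at 1.00 ± 0.12 (limma adjusted p = 0.00021), on the 2-fold limit. Leaving out 1 of 4 arrays, larval fat body replicates 3 or 4 or whole larva replicates 1 or 4, put it between 0.918 and 0.999. Wandering larval fat body was its highest group at 17.5 ± 4.34, and adult fat body was at 5.49 ± 4.60. The other 5 Gr22 genes were between 0.772 and 6.73 in larval fat body.

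The tubule was also taken from wandering larvae, a comparison added after the levels had been seen. Wandering tubule arrays pooled 30 larvae each and feeding tubule arrays 50, and the stages lie apart in the sample order of the series. Stage, pool size and any batch thus cannot be told apart. Gr98a was at 55.3 ± 15.8 units in feeding and 9.03 ± 4.12 in wandering larval tubule. It was lower by 1.77 on the log2 scale (SE 0.21, limma adjusted p = 0.00029), while 2.3% of all probe sets were lower. Wandering arrays read 10.4, 7.48, 4.27 and 13.9, all below the feeding arrays. Gr59f differed the other way. It read 36.9, 17.9, 42.8 and 27.4 in wandering tubule and 3.77, 6.57, 0.855 and 3.24 in feeding tubule. It was 1.57 ± 0.20 higher in wandering tubule (limma adjusted p = 0.00051), while 2.21% of all probe sets were higher. Gr59f was not above 9.42 units in any other group, and its neighbour Gr59e was at 10.6 in each. Cyp6a18 was at 1152 ± 154 in wandering tubule, lower than in feeding tubule but still above whole larva. In fat body no receptor was called between the stages, where 2.47% of all probe sets were higher in wandering larvae and 2.97% lower. At an unadjusted limma p under 0.05, 4 receptors were higher there and 0 lower. Gr98a was at 0.909 ± 0.446 units in feeding and 0.808 ± 0.719 in wandering larval fat body. These lie at the floor of the scale, so no fall could be read there. Its interaction of tissue and stage, -1.76 ± 0.25 (limma adjusted p = 0.00025), therefore restates the tubule difference. Gr59f was at 2.45 ± 2.19 in feeding and 7.51 ± 5.91 in wandering fat body, with an interaction of 1.13 ± 0.34 (limma adjusted p = 0.048).

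Over 9 pairs of larval and adult tissue, 567 receptor tests, 1 receptor was lower in larvae, 0.176% where 8.32% of all probe sets were, and none was higher (limma; 19 at an unadjusted p under 0.05), where 6.95% of all were. Gr28b read 9.51, 13.5, 7.04 and 14.8 units in larval CNS and 42.2 to 59.6 in the adult ganglion, a difference of -1.54 ± 0.14 (limma adjusted p = 8.1e-06), where 8.41% of all probe sets were lower. Every larval array was below every ganglion array. The adult brain was at 15.3 ± 2.62 and the larval CNS at 11.2 ± 3.58. Larval CNS holds brain and nerve cord together, so the samples do not match in their parts.

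In S2 cells, which carry no taste neurons, 3 of 63 receptors were higher than in whole fly, 4.76% where 10.3% of all probe sets were. By limma 0 receptors were lower (4 at an unadjusted p under 0.05), where 21.4% of all probe sets were. Only 2 of 63 receptors had a whole fly mean over the 10 units that a 2-fold fall needs. Gr61a, a glucose receptor, read 43.0, 44.1, 49.3 and 51.2 units in S2 cells and 6.19, 7.19, 10.02 and 8.57 in whole fly, at 1.66 ± 0.09 (limma adjusted p = 9e-08). The groups were far apart, with no overlap. The ganglion came next for Gr61a, at 21.1 ± 4.83, and larval CNS was at 15.8 ± 5.06. Gr94a read 26.9, 30.4, 29.6 and 24.5 against 0.684 to 3.01, at 1.68 ± 0.10 (limma adjusted p = 1.5e-07). It is overlapped by p53, a stress-response transcription factor gene, which was itself highest in S2 cells at 368 ± 32.4 against 111 ± 17.1 in whole fly; its part in the Gr94a values was not tested. Gr5a, the trehalose receptor, was 18.2 ± 4.29 against 3.75 ± 2.52, at 1.04 ± 0.15 (limma adjusted p = 0.00016). The Gr5a call was lost without any 1 of S2 replicates 2 or 3 or whole fly replicates 3 or 4, at 0.947 to 0.994.

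Among genes that share a number in their names, few members had a group mean of 20 units. Of the 6 Gr59 genes, Gr59d in accessory gland and Gr59f in wandering larval tubule reached it. Of the 4 Gr98 genes, Gr98a alone reached it, and of the pair Gr28a and Gr28b, Gr28b alone. None of the 6 Gr22 genes did.

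Gr77a exceeded the reference level in brain without a call against whole fly. It read 21.3, 16.8, 26.1 and 22.9 units in adult salivary gland, 12.5, 15.3, 16.2 and 18.3 in brain, and 4.56 to 7.81 in ovary. Its median over groups was 9.23 units.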

How the data were processed

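Linear intensity values, 1 per probe set and array, were taken from the values the authors deposited for 136 Affymetrix arrays; their software, background step and summary method are not given in the sources used here. Probe sets were named from GEO's platform annotation, in which 13646 had 1 symbol, 402 several and 4721 were not listed, and 183 control probe sets were left out. Each array was scaled to 1 trimmed mean (middle 96%), and log2(signal + 10% of it) was fitted across all 18769 probe sets, unfiltered, with limma 3.58.1 (R 4.3.3; lmFit, eBayes), with Benjamini-Hochberg adjustment within a comparison. Members and gene lists were chosen with earlier results of these data known. Wandering against feeding larvae was added after the tubule levels were seen.

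Named with values were members above the reference level in all 4 arrays of a group, members of the role lists, and up to 12 called members per family of comparisons without overlap between groups; others that the text singles out, such as Gr39a, were chosen after their values were seen. Alternatives were quantile normalization, pseudocounts of 2% and 40%, filters on low signal, leaving out replicates or arrays, and a replicate block. On simulated data with the duct and whole fly arrays' levels, 42 of 50 probe sets changed 2.5-fold at signals of 30 or more were recovered, and 21 of 50 changed 4-fold at signals of 2 to 10. The number of arrays limits the precision. The submitters' titles gave the groups. Descriptions used Python 3.11.15.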

Additional observations from a re-analysis of the deposited data

Results flagged for a closer look

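Among 84 groups of 4 arrays examined for a value far from the others, 8 held one, and chance flags about 1 in 20 groups. For Gr8a in ejaculatory duct, replicate 4 was low at 393 units against 499.7 to 516 on the others. For Gr97a in ejaculatory duct, replicate 1 was high at 43.4 against 36.6 to 37.7. In brain, replicate 4 was high for Gr61a (19.7) and Gr68a (8.76) and low for Gr43a (2.41), and replicate 1 was high for Gr39a on 1 of its 5 probe sets (2.63). In head, Gr47a was high on replicate 2 (2.68) and Gr33a on replicate 3 (9.71).

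The difference between wandering and feeding larvae was unlike in tubule and fat body for 2 receptors, by the interaction term in limma. The term was 1.13 on the log2 scale for Gr59f and -1.76 for Gr98a. Gr98a was at the floor in fat body of both stages, so its term restates the tubule difference.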

How the results depend on the processing

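Of 27 called differences of named receptors none reversed under the alternatives run. With the 40% pseudocount 19 missed the call, and with quantile normalization 3 did (Gr39a in salivary gland, Gr36a and Gr98c in muscle). Leaving out 1 replicate of every group lost 5 (replicate 1), 2 (replicate 2), 6 (replicate 3) or 3 (replicate 4). Gr22a was lost without the 6 arrays that stand apart, a fit whose muscle calls are not counted. Tests removed by a filter are not counted as missed. For adult tissues against whole fly, the 12 higher calls became 121 with the 2% pseudocount and 4 with 40%. They were 11 to 18 leaving out 1 replicate. The filter at the 60th percentile left 8 of 1323 receptor tests, with 7 higher calls. In whole fly the highest receptor stood at the 38.2 percentile. These tests thus passed only through the tissue where the receptor was high, so that count is no check. Without the arrays that stand apart thoracic muscle kept 1 array, so no count of adult calls is given. The 0 lower calls became 30 with 2% and 0 to 1 leaving out 1. Each adult tissue against the others gave 7 higher calls, 65 with 2%, 3 with 40%, 23 without the arrays that stand apart and 7 to 11 leaving out 1, and 32 lower with 2%. For larval tissues the 2 higher calls became 19 with 2%, 1 with 40% and 1 with the filter. Without the arrays that stand apart there was 1, and leaving out 1 replicate gave 1 to 2. With 2%, 8 were lower. The filter count is no check here either, as the highest receptor in whole larva stood at the 41.2 percentile. Head against brain had 5 higher calls with 2% and 0 to 1 leaving out 1 replicate; head against eye had 8 higher and 1 lower with 2%. Larval against adult tissues had 1 higher with quantile normalization, 9 with 2% and 0 to 1 leaving out 1, and its 1 lower call became 19 with 2%, 0 with 40% and 1 to 4 leaving out 1. S2 cells had 0 higher calls with 40% and 1 lower with 2%. Wandering against feeding had 2 higher with 2%, and with 40% 0 higher and 0 lower. The cause of these differences was not tested. A larger pseudocount shrinks differences of low signals by construction. Shares of all probe sets are not given for these alternatives, so their counts cannot be set against the shares in the Results. Same-numbered replicates did not deviate together, as 0 of 43 comparisons had every pair's correlation over 0.1 (range -0.43 to 0.47), and a fit with the replicate block gave 12 higher calls for adult tissues. Signal near the background limits the reading of most receptors.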

Other observations

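The 3 probe sets that match 2 Gr64 genes each, outside the members, had highest group means of 7.96 units in accessory gland, 11.6 ± 4.88 (SD, n = 4) in head and 9.75 in thoracic muscle.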
